A study of Homo sapiens with 24 samples.

Results

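The genes of the heat shock chaperone system described here are 10 genes listed by name, followed through 6 lists of protein-bound RNA windows in human HEK293 cells, an established line derived from embryonic kidney. They were HSPA1A, HSPA1B, HSPA8, HSPA4, HSPH1, DNAJB1, HSP90AA1, HSP90AB1, HSPD1 and HSPE1, of 9792 genes with a window in any list. All 10 had a window in at least 1 list. They were chosen by name and not by a cut on a measured value, but with earlier results of these data known. The set was labelled cytosolic, but HSPD1 and HSPE1 encode chaperones of the mitochondrial matrix, so the label holds for the other genes only.

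The method was eCLIP, in which RNA bound to a protein is cross-linked, cut into fragments, immunoprecipitated (IP) with an antibody and sequenced beside an input library of the same lysate. SNRNP200 was precipitated from whole HEK293 cells and from their cytoplasmic fraction, each untreated and after 500 µM of arsenic, and CAPRIN and G3BP1 were precipitated from untreated cells. Each of these 6 experiments had 2 labelled replicates of IP and 2 of input, 24 libraries in all. All groups share the same cell line and growth medium, the labels do not say whether replicates were separate cultures, and no source used here gives the duration of the arsenic treatment. Each list holds windows of at most 100 bases that the authors called enriched, with input and IP reads summed over replicates and the lowest, mean and highest log2 enrichment of IP over input among the replicates. With 2 replicates the lowest and highest are the replicate values. The larger of 2 sets of entries in the G3BP1 list counts up to 3 replicates per window, although the labels give 2.

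Chaperones keep other proteins folded. HSP70 proteins bind and release unfolded stretches with the help of J-domain proteins, which bring clients and trigger ATP hydrolysis, and of nucleotide exchange factors such as the HSP110 proteins, while HSP90 acts later on signalling and regulatory clients. Under heat, arsenic and other stress that unfolds proteins, the transcription factor HSF1 binds heat shock elements in the promoters of many of these genes. SNRNP200 (Brr2) is the helicase of the U5 particle of the spliceosome that unwinds the U4/U6 pair, so it meets pre-mRNA at introns. G3BP1 and CAPRIN-family proteins are RNA-binding proteins known from stress granules.

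The 2 whole cell lists held 182066 windows without arsenic and 117690 with it, and the cytoplasmic lists held 4182 and 6773. CAPRIN had 15831 windows and G3BP1 had 3023 different windows in 3242 entries. In whole cells 9 of the 10 chaperone genes had a window without arsenic and 9 with it, beside 92.4% and 83.8% of all 9792 genes. In the cytoplasm 6 had one without arsenic and 7 with it, beside 18.6% and 25.2% of all genes. CAPRIN windows lay in 8 of the 10 (44.6% of all genes) and G3BP1 windows in 3 of the 10 (12.6% of all genes). Without the G3BP1 set that counts up to 3 replicates, 2 of the 10 had a G3BP1 window. The genes held 232 and 265 whole cell windows, 21 and 14 cytoplasmic windows, 38 CAPRIN windows and 6 G3BP1 windows, in the same order.

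**Figure D1:**
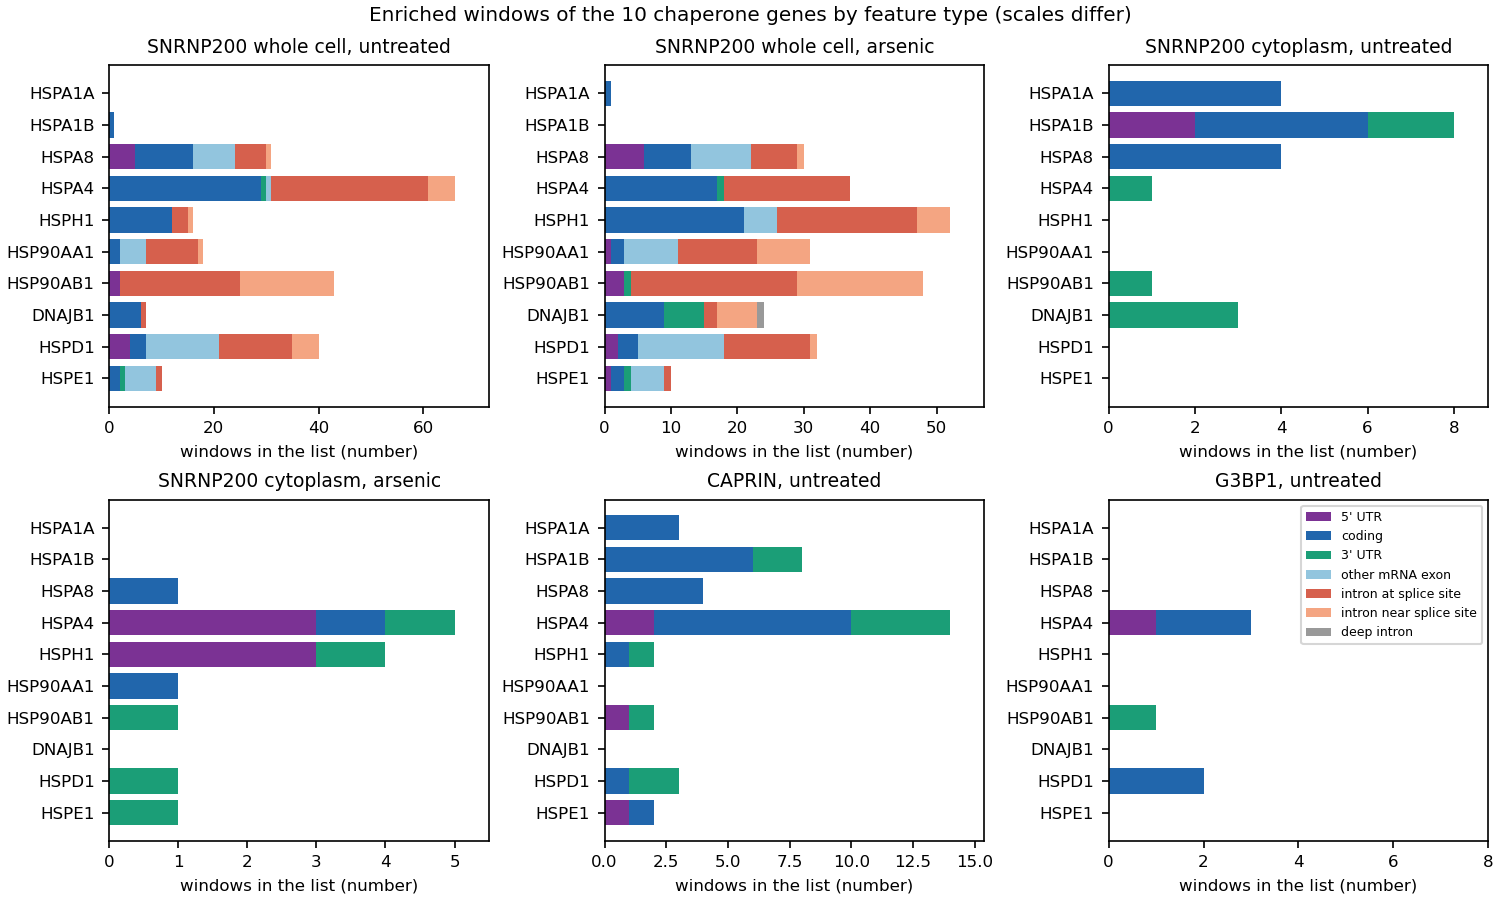
Number of enriched windows (x axis) of each chaperone gene (y axis) in each of the 6 lists, with colours for the feature type; x scales differ between panels. Whole cell SNRNP200 windows were largely intronic or coding, and DNAJB1 and HSPH1 had 7 and 16 windows without arsenic against 24 and 52 with it. The cytoplasmic, CAPRIN and G3BP1 lists held no intron window of these genes, and intron windows were a small share of those lists.

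With arsenic, most chaperone genes had more reads in whole cells, in the input as well as in the SNRNP200 IP. Reads were summed over the windows that a gene had in both whole cell lists and set against the same ratio over all 91143 shared windows. HSPA1A and HSPA1B had no shared window, which leaves 8 genes. DNAJB1 stood 10.8-fold higher in input, HSP90AA1 6.60-fold, HSP90AB1 3.85-fold, HSPH1 3.17-fold, HSPA8 2.21-fold and HSPE1 2.06-fold. HSPD1 stood at 1.92-fold and HSPA4 at 1.05-fold. So 6 of 8 were at least 2-fold higher, where 2.79% of the 5156 genes with at least 20 input reads over both lists were.

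The IP reads of the same windows, all called enriched in both lists, gave nearly the same order. DNAJB1 was 10.7-fold higher, HSP90AA1 5.87-fold, HSPH1 4.47-fold, HSP90AB1 3.67-fold, HSPE1 2.56-fold, HSPA8 1.80-fold, HSPD1 1.59-fold and HSPA4 1.23-fold. That is 5 of 8 genes at least 2-fold higher, beside 2.47% of the 7530 genes with at least 20 IP reads over both lists. DNAJB1 ranked 1 of all genes in both kinds of read. HSP90AA1 ranked 3 in input and 5 in IP. JUN, ATF3 and DUSP1, genes known to be switched on early in many stress responses, were among the 10 highest in both. So was FTL, and other genes were among the 10 highest in 1 kind of read only. The counts were summed over replicates by the authors, so these folds have counting intervals and no replicate error, and no test was possible. In bulk libraries, more cells with an RNA and more RNA per cell cannot be told apart.

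**Figure D2:**
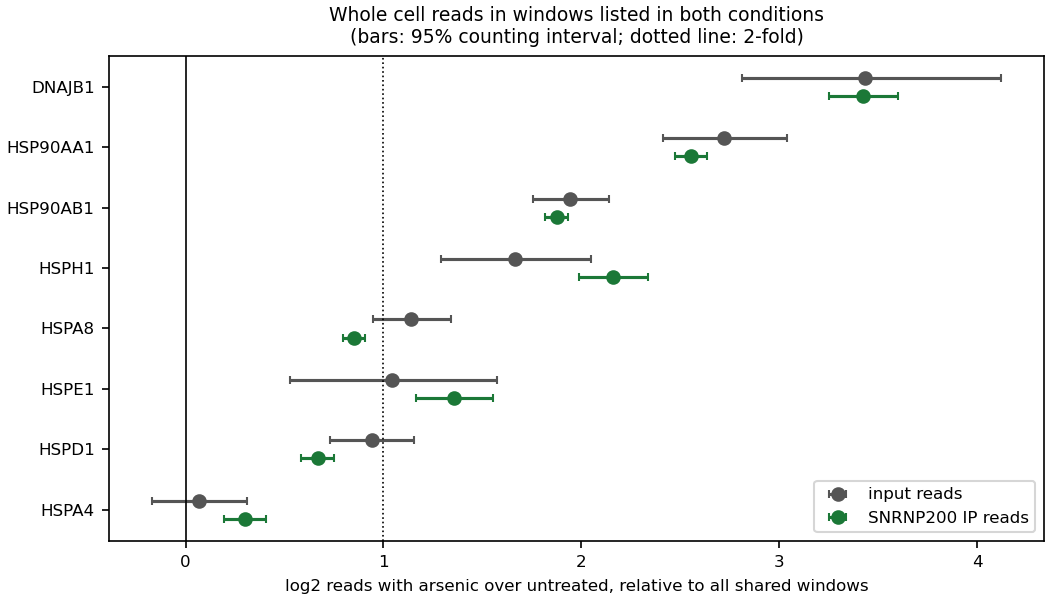
Log2 ratio of reads with arsenic over untreated in whole cells (x axis), relative to all shared windows, for the 8 chaperone genes (y axis) with shared windows; grey points are input, green points are SNRNP200 IP, and bars are 95% counting intervals. Input and IP lie close together for each gene, from 3.43 and 3.42 for DNAJB1 down to 0.07 and 0.30 for HSPA4.

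HSPA1A and HSPA1B encode the stress-inducible HSP70 and are near-identical neighbours on chromosome 6, so reads of one can be assigned to the other and each gene's own values are uncertain. Some HSPA1B windows also name the overlapping RNA XXbac-BPG254B15.11. In whole cells HSPA1B had 1 coding window without arsenic (16 input and 51 IP reads) and none with it. HSPA1A had none without arsenic and 1 coding window with it (149 input and 331 IP reads). Genes found with arsenic only were 2.45% of the 9279 in either whole cell list, and genes found without it only were 11.6%. Both windows are the same place of the gene pair: HSPA1A chr6:31816048-31816143 and HSPA1B chr6:31828242-31828337 lie at a constant offset of 12194 bases and have the same GC content, 0.573. Read as 1 place in the pair, it was thus present in both lists, with replicate enrichments of 1.82 and 2.60 without arsenic and 1.61 and 1.89 with it.

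In the untreated cytoplasm the pair was the best covered of the 10 genes. HSPA1B had 8 windows with 2204 IP reads, 2 in the 5′ UTR, 4 coding or at the stop codon and 2 in the 3′ UTR, and HSPA1A had 4 coding windows with 528 IP reads. Their enrichments were low: the medians were 1.62 for HSPA1B and 1.86 for HSPA1A, beside 3.01 over the whole list. With arsenic neither gene had a cytoplasmic window, and 22.3% of the 3182 genes in either cytoplasmic list were likewise found without arsenic only. CAPRIN had 8 windows in HSPA1B, the strongest of them at the stop codon (replicates 5.14 and 5.35, 1 input and 67 IP reads), and 3 in HSPA1A. Over all lists HSPA1A had 7 window positions and HSPA1B 12, and 4 positions were shared at the offset.

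**Figure D3:**
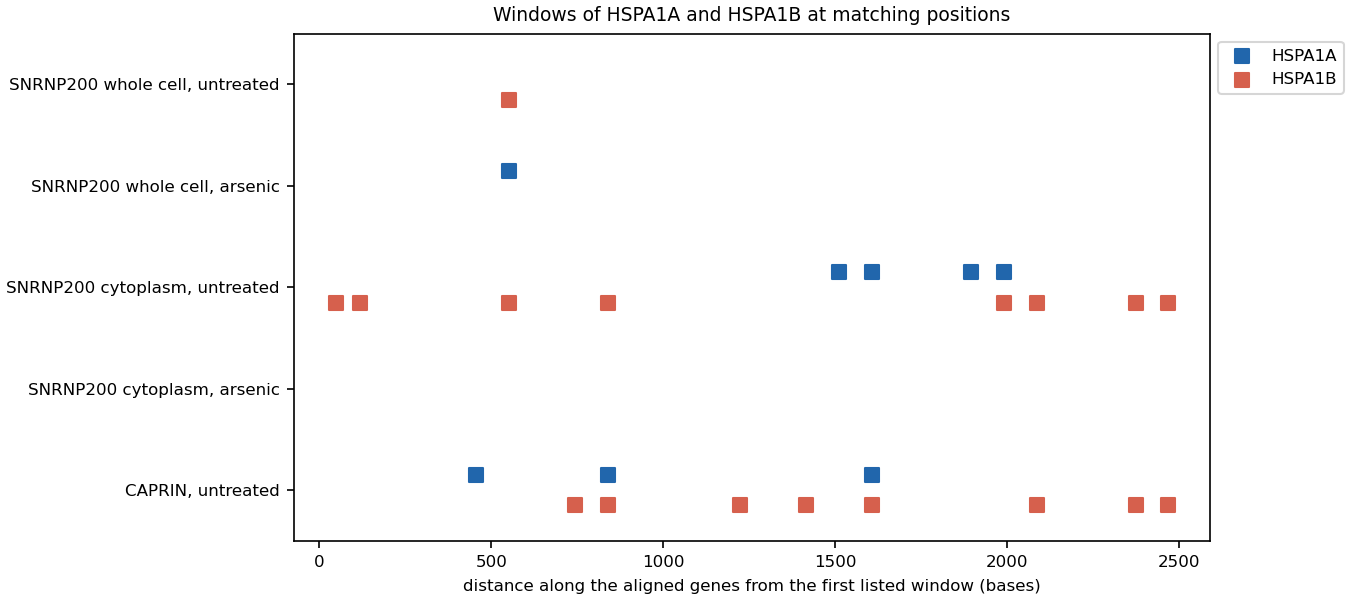
Windows of HSPA1A (blue) and HSPA1B (red) at matching positions along the gene (x axis, bases) in 5 lists (y axis); G3BP1 had none in either gene. The single whole cell window lies at the same position for HSPA1B without arsenic and HSPA1A with it, and the cytoplasmic windows are present without arsenic only.

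HSPA8 encodes the constitutive cytosolic HSC70. It had 31 whole cell windows without arsenic and 30 with it, 25 of them shared. By first listed feature they were spread over the 5′ UTR, coding sequence, introns at splice sites and other exons. Some listed as 5′ UTR, such as chr11:123058831-123058906, lay downstream of coding windows of this minus strand gene. The IP reads of HSPA8 in shared windows went from 4022 to 6709 and its input reads from 323 to 616. In the window with most IP reads, at an intron next to a splice site (chr11:123060493-123060592), replicate enrichments were 4.30 and 4.30 without arsenic and 4.02 and 4.23 with it. The untreated replicates lay above both arsenic replicates there, by a difference of -0.17 (SE 0.84, limma with Benjamini-Hochberg adjustment, adjusted p = 0.99). The cytoplasmic lists held 4 coding windows without arsenic and 1 with it, and CAPRIN had 4 coding windows. One coding window, chr11:123060192-123060268, was in 4 lists: whole cell untreated, both cytoplasmic lists and CAPRIN.

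The HSP110 proteins HSPA4 and HSPH1 are nucleotide exchange factors of HSP70. They went different ways in whole cells. HSPA4 had 66 windows without arsenic and 37 with it, a ratio of 0.561, where the median gene stood at 0.613 (6732 genes with a window in both lists and at least 5 in either). HSPH1 went from 16 windows to 52, a ratio of 3.25. Only 1.43% of 6903 genes with at least 5 windows had at least 2 times as many with arsenic, HSPH1 and DNAJB1 among them, and 39.1% had at least 2 times as many without it, none of the chaperone genes among them.

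Of the 52 HSPH1 windows with arsenic, 40 were absent from the untreated list: 12 coding, 10 at a 5′ splice site, 8 at a 3′ splice site, 4 further into the intron from a 5′ splice site, 5 in other exons and 1 at both splice sites of a short intron. They held 3186 IP reads on 505 input reads, with a median enrichment of 3.85. The 12 shared HSPH1 windows had 337 IP and 81 input reads without arsenic and 1393 IP and 222 input reads with it. HSPA4 gained 2 windows and lost 31, of which 12 were coding, 13 lay at a splice site, 5 further into an intron and 1 in another exon, and its 35 shared windows held 1316 and 1500 IP reads. The replicates of its window with most IP reads overlapped (4.40 and 5.18 without arsenic, 3.42 and 5.29 with it, chr5:133070435-133070496), as did those of HSPH1 (2.29 and 3.26 against 2.68 and 4.27, chr13:31138407-31138487).

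In the cytoplasm with arsenic, each HSP110 gene had 3 adjacent windows over its 5′ UTR that were absent without arsenic. For HSPA4 they ran over chr5:133052013-133052250 with 40, 115 and 77 IP reads on 9, 18 and 20 input reads. For HSPH1 they ran over chr13:31161583-31161840 with 56, 79 and 75 IP reads on 7, 6 and 22 input reads. They were the only 5′ UTR windows of the 10 genes in that list, 6 of 14 windows (42.9%), where 17.5% of all its windows were of this kind. In the untreated cytoplasmic list 4.95% of all windows were, so the share of 5′ UTR windows was higher with arsenic over all genes too. At q under 0.05, HSPA4 kept 1 window of any kind in the cytoplasmic list with arsenic and HSPH1 kept 0. The middle HSPA4 window had replicate enrichments of 3.62 and 5.88, and the middle HSPH1 window 3.63 and 7.60, a wide spread. HSPA4 also carried CAPRIN windows there, on 2 of these 5′ UTR windows and at the start codon, and G3BP1 windows on the other 5′ UTR window and at the start codon. The G3BP1 window at the start codon, chr5:133052251-133052350, was the strongest of that list among the 10 genes (6.26 and 7.19, 83 IP reads and no input read). HSPH1 had a CAPRIN window at its start codon with 18 IP reads and no input read, and no G3BP1 window.

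DNAJB1 (HSP40) is the J-domain protein that serves the inducible HSP70 in the cytosol. Its whole cell windows numbered 7 without arsenic and 24 with it, and all 7 were kept. The 7 shared windows held 303 IP and 23 input reads without arsenic and 3009 IP and 215 input reads with it, a log2 ratio of 3.43 in input (95% counting interval 2.81 to 4.12) and 3.42 in IP (3.25 to 3.60). The window with most IP reads was the first 100 bases of an intron, chr19:14518039-14518138 on the minus strand, annotated as adjacent to a 5′ splice site. It is shown because it is the window of this gene with the most IP reads over both lists, 96 without arsenic and 1130 with it, on 1 and 26 input reads. It reads 5′ to 3′ on the RNA strand, with the first 6 intron bases in capitals and GT as the first pair (RefSeq promoter table, GRCh38.p14):
DNAJB1 intron start: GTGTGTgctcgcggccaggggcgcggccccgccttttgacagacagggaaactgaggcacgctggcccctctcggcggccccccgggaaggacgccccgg

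The deposited GC content of that window, 0.75, equals that of the printed bases. Its replicate enrichments were 4.36 and 5.06 without arsenic and 3.90 and 4.76 with it, so the ranges overlapped (difference -0.38, SE 0.86, limma with Benjamini-Hochberg adjustment, adjusted p = 0.99). The 17 DNAJB1 windows found with arsenic only held 4320 IP and 452 input reads. By first listed feature, 6 lay in the 3′ UTR, 3 were coding including the start codon, and 8 lay in introns. The 3′ UTR windows within chr19:14516171-14516435 were also listed as adjacent to a splice site and as intron, so these groups are not separate. The strongest of the 17 lay at a 3′ splice site, chr19:14517047-14517146, with replicates of 4.77 and 7.03 and 577 IP reads. The cytoplasmic lists held 3 adjacent 3′ UTR windows of DNAJB1 without arsenic (47, 89 and 34 IP reads on 4, 6 and 5 input reads) and none with it. Of the 3182 genes in either cytoplasmic list, 22.3% were likewise found without arsenic only. Neither CAPRIN nor G3BP1 had a DNAJB1 window.

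**Figure D4:**
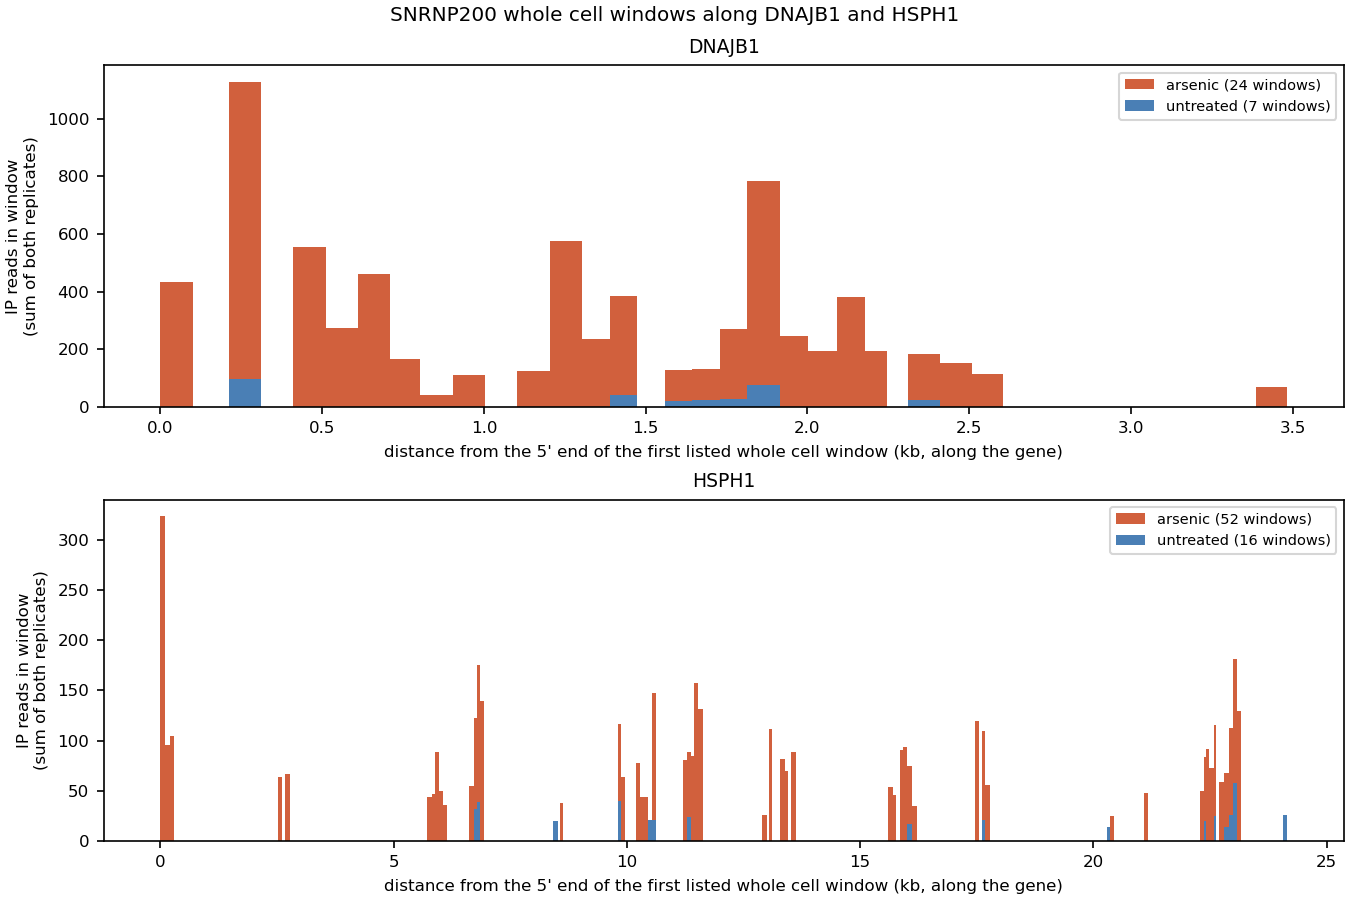
IP reads per whole cell SNRNP200 window (y axis, sum of both replicates) along DNAJB1 and HSPH1 (x axis, kb from the 5′ end of the first listed window); red is arsenic and blue is untreated, drawn in front. DNAJB1 shows 24 windows with arsenic over exons and introns against 7 without, and HSPH1 52 against 16.

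HSP90AA1 encodes the inducible and HSP90AB1 the constitutive cytosolic HSP90. All 18 HSP90AA1 windows of untreated whole cells were also found with arsenic, together with 13 others, 9 of them in introns. Its shared windows held 1466 IP and 101 input reads without arsenic and 7970 IP and 576 input reads with it. The window with most IP reads, at an intron beside a splice site (chr14:102085708-102085757), had replicates of 4.70 and 4.94 without arsenic and 5.29 and 5.45 with it. Both arsenic replicates lay above both untreated ones there, but the difference of 0.55 (SE 0.84) did not pass limma with Benjamini-Hochberg adjustment (adjusted p = 0.99). Outside whole cells the gene had a single window of 10 bases, in the cytoplasm with arsenic (15 input and 20 IP reads).

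HSP90AB1 had 43 whole cell windows without arsenic and 48 with it, 42 of them shared. None was coding: 41 of the 43 and 44 of the 48 were intronic and the rest lay in UTRs, where 41.5% and 38.1% of all windows in those lists were coding. HSP90AB1 had no coding window in any of the 6 lists, so this was not particular to whole cells. Its shared windows went from 2951 to 10019 IP reads and from 288 to 959 input reads. One window in its 3′ UTR, chr6:44253599-44253693, was in 5 of the 6 lists, all except whole cell untreated. Of the 225825 different windows, 0.0903% were in at least 5 lists. It held 404 IP and 159 input reads in whole cells with arsenic, 591 and 108 in the untreated cytoplasm, and 715 and 160 in the cytoplasm with arsenic. CAPRIN had 340 IP and 30 input reads there, and the 2 G3BP1 sets had 41 and 127 IP reads on 18 and 79 input reads.

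HSPD1 (HSP60) and HSPE1 (HSP10) form the mitochondrial chaperonin and are neighbours on chromosome 2 in opposite directions. HSPD1 had 40 whole cell windows without arsenic and 32 with it, and HSPE1 had 10 and 10. The shared HSPE1 window with most IP reads, chr2:197500440-197500529 on the plus strand, was listed first as mRNA exon and also as adjacent to a 5′ splice site and intron. It is shown because its difference between conditions was the largest of the 8 windows tested in whole cells. The first 85 of its 90 bases read, with the first 6 in capitals, GT again the first pair (RefSeq promoter table, GRCh38.p14):
HSPE1 window: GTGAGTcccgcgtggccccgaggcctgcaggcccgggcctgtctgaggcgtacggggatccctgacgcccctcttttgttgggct

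That window had replicates of 2.12 and 2.17 without arsenic and 2.61 and 5.56 with it, so the groups did not overlap but 1 arsenic replicate stood far above the other. The difference was 1.94 (SE 1.00, limma with Benjamini-Hochberg adjustment, adjusted p = 0.99). It was 1.01 as the mean over the gene's shared windows and 0.37 in the shared window with most IP reads at q under 0.05. All 7 shared HSPE1 windows were higher on average with arsenic, from 0.37 to 1.94, beside 49.7% of all shared windows. Only 2 of the 7 had both arsenic replicates above both untreated ones. The windows of 1 gene share libraries and are not independent. In the HSPD1 3′ UTR, CAPRIN had 2 adjacent windows with 54 and 47 IP reads and no input read (replicates 6.83 and 7.29, and 5.96 and 7.32), the highest CAPRIN enrichments of the 10 genes. The second of them was also the single HSPD1 window in the cytoplasm with arsenic.

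In the windows listed in both conditions, input and IP reads of most of these genes thus rose together. The enrichment, which sets IP against input, passed no test. Only windows called enriched in both lists entered, so enrichment was high in both conditions by selection. Windows found in 1 condition only could not enter either comparison. In whole cells limma with Benjamini-Hochberg adjustment called 0 of 7531 genes (0%) between arsenic and untreated, with 288 at an unadjusted p under 0.05. None of the 8 chaperone windows tested was among those 288, and the differences ran from -0.44 for HSPA4 to 1.94 for HSPE1, with 0.70 for both HSP90AB1 and HSPH1. Several of these signs turned with the choice of window: HSPA4 was 0.10, DNAJB1 0.15 and HSPD1 0.10 as means over their windows, and at q under 0.05 HSP90AB1 was -0.46, HSPH1 -0.25 and DNAJB1 0.061. Over all shared windows, 15.6% had both arsenic replicates above both untreated ones and 16.9% had both below. For HSP90AB1 this was 9 and 4 of 42 windows, for HSPA8 5 and 6 of 25, for HSPD1 5 and 3 of 27, for HSPA4 5 and 1 of 35, for HSPH1 3 and 1 of 12, for HSP90AA1 2 and 1 of 18, and for DNAJB1 2 and 0 of 7. With 2 replicates against 2, an exact permutation test of a single window cannot go below p = 0.33.

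**Figure D5:**
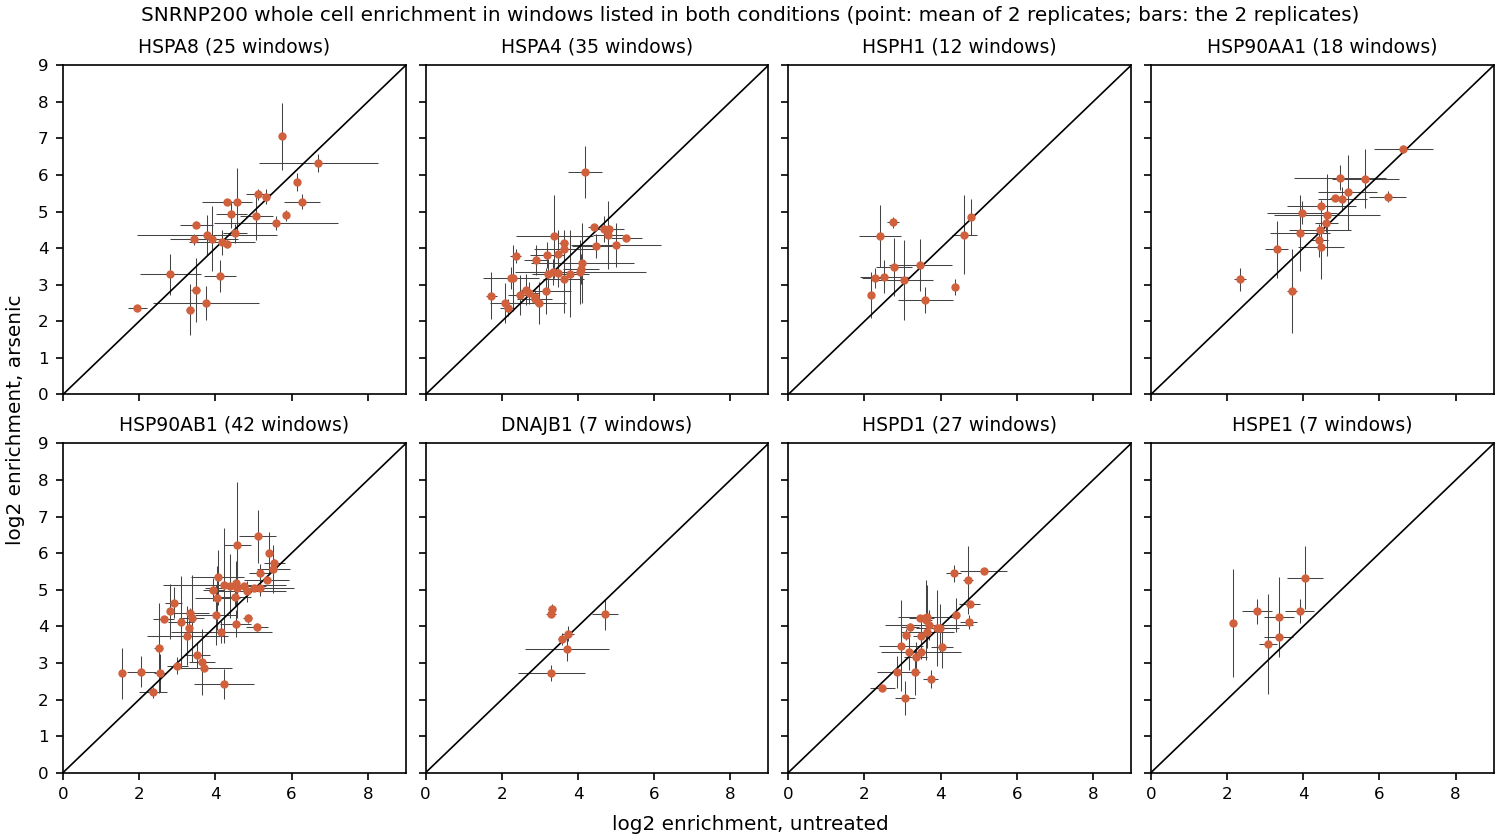
Log2 enrichment of SNRNP200 IP over input with arsenic (y axis) against untreated (x axis) in the whole cell windows found in both lists, 1 panel per gene; points are means of 2 replicates and bars join the replicates. The points scatter about the line of equal enrichment, with all 7 HSPE1 windows above it.

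In the cytoplasm 3 of the 10 genes were found without arsenic only (HSPA1A, HSPA1B and DNAJB1), as were 22.3% of the 3182 genes in either list. Another 4 were found with arsenic only (HSPH1, HSP90AA1, HSPD1 and HSPE1), as were 42.9%, so these shares are near those of all genes. HSPA8, HSPA4 and HSP90AB1 were found in both, with 1 shared window each. All 3 shared windows were higher on average with arsenic, and 2 of them, in the 3′ UTRs of HSP90AB1 and HSPA4, had both arsenic replicates above both untreated ones. Of all 1065 shared cytoplasmic windows 71.4% were like this and 0.751% the reverse.

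The HSP90AB1 window had replicates of 2.17 and 2.65 without arsenic and 3.49 and 6.65 with it, a difference of 2.66 (SE 1.28, limma with Benjamini-Hochberg adjustment, adjusted p = 0.17). HSPA8 differed by 2.02 (SE 1.30, limma adjusted p = 0.26) and HSPA4 by 0.87 (SE 1.12, limma adjusted p = 0.53). The median difference over all 686 genes tested was 2.02, so HSPA8 stood at the median and HSPA4 below it, and with that median removed HSP90AB1 differed by 0.64. Limma with Benjamini-Hochberg adjustment called 0 of the 686 (0%), with 206 at an unadjusted p under 0.05. The listed value of 0 stood for 9.06 input reads per IP read in the cytoplasmic list with arsenic and for 1.01 in that without, so a listed difference between these lists is not a difference in reads. The part of this shift in the listed differences was not tested.

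Between fractions, enrichment could be compared for 4 genes, on the listed scale only. With arsenic a listed 0 meant 9.06 times as many input as IP reads in the cytoplasmic list. The factor was 1.58 in the whole cell list. Without arsenic these factors were 1.01 and 1.63. A listed difference between fractions is therefore not a difference in reads. Without arsenic the 4 HSPA8 windows found in both fractions were listed lower in the cytoplasm, 2 of them in both replicates. They lie in the same gene and share libraries, so they are not independent. Among all 651 windows shared by these lists, 57.1% were listed higher in the cytoplasm. Both cytoplasmic replicates lay below both whole cell ones in 138 windows and above them in 194. The HSPA1B window was 0.55 lower on the log2 scale, listed as -0.55 (SE 0.56, limma adjusted p = 0.66). The tested HSPA8 window differed by -0.41 (SE 0.54, limma adjusted p = 0.71). With arsenic the HSP90AB1 3′ UTR window was listed higher in the cytoplasm by 3.37 (SE 1.08, limma adjusted p = 0.25). The HSP90AA1 window was listed higher by 1.02 (SE 1.09, limma adjusted p = 0.53), where the median of 545 genes was 1.31. HSP90AB1 had 715 IP and 160 input reads in the cytoplasm, against 404 and 159 in whole cells. HSP90AA1 had 20 and 15 against 136 and 15, a lower ratio of IP to input in the cytoplasm. Library depth is unknown, so these counts do not settle the direction. Limma with Benjamini-Hochberg adjustment called 0 of 405 genes (0%) without arsenic and 0 of 545 (0%) with it, and 66 and 97 had an unadjusted p under 0.05.

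The genes also differed in how far their windows were spread over the mRNA and its introns. Of the 232 untreated whole cell windows, 28.4% were coding, 37.9% lay in introns at a splice site and 13.4% in introns near one. Other mRNA exons made up 14.7% and 5′ UTRs 4.74%. Over all windows of that list these shares were, in the same order, 41.5%, 35.7%, 10.9%, 4.26% and 1.86%. The HSPE1 window printed above, counted as other mRNA exon, was also listed as intron, so these groups are not separate. In the cytoplasm, CAPRIN and G3BP1 lists, the 21, 14, 38 and 6 windows of these genes were all in mature mRNA, 57.1%, 21.4%, 63.2% and 66.7% of them coding. The coding shares over all windows of the same lists were 24.7%, 34.9%, 52.3% and 57.6%. Deep introns, the largest intron group in these lists, made up 0.789%, 0.295%, 4.83% and 6.15% of all their windows. With so few windows, the lack of intron windows is no result about these genes. HSPA4 had the most CAPRIN windows (14) and G3BP1 windows (3) of the 10 genes, and HSP90AA1 and DNAJB1 had neither.

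A wider list of 62 chaperone, cochaperone and heat shock factor genes gave 51 and 49 genes with a whole cell window without and with arsenic, 18 and 26 with a cytoplasmic one, 34 with a CAPRIN window and 5 with a G3BP1 window. Of the list, 53 genes were in any window list, and the shares over all genes in any list are the 92.4%, 83.8%, 18.6%, 25.2%, 44.6% and 12.6% given above. In input reads of shared whole cell windows 3 of 37 genes were at least 2-fold higher with arsenic, beside 2.79% of 5156 genes. None of the 37 was at least 2-fold lower. Their median log2 ratio was 0.09, beside 1.40 for the 8 chaperone genes and -0.11 for all genes. The 3 higher genes were CHORDC1, an HSP90 cochaperone (3.02-fold), DNAJA1, another cytosolic J-domain protein (2.83-fold), and STIP1, which links HSP70 to HSP90 (2.20-fold). In IP reads 3 of 49 genes were at least 2-fold higher, beside 2.47% of 7530 genes. They were CHORDC1 (2.47-fold), DNAJA1 (2.42-fold) and BAG3, an HSP70 exchange factor of protein quality control (2.16-fold, from 15 to 30 reads in 1 window). BAG3 had 1 whole cell window without arsenic and 7 with it. BAG2 and BAG5, 2 of 51 genes, had whole cell windows without arsenic only, as did 11.6% of the 9279 genes in either whole cell list. In the cytoplasm 13 of 31 genes of the wider list were found with arsenic only, among them HSF1, CDC37 and SERPINH1, and 5 without it only: DNAJB6, DNAJC7, BAG4, BAG5 and TTC4. With 42.9% and 22.3% over all genes, these counts are no result about the list.

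The genes nearest to each chaperone gene in the number of windows over the 6 lists were named by the smallest distance of log2(windows + 1). HSPA8 was nearest to DDX19A, GLOD4 and SRSF5, HSPA4 to XRCC6, TKT and FKBP4, and HSP90AB1 to TNKS2, ARIH2 and the G3BP1 gene. HSPH1 was nearest to SFXN1, LARP4 and DCUN1D5, HSPD1 to AMBRA1, YME1L1 and MAP4K4, and HSPE1 to CTD-2116N17.1, CNN3 and NDFIP2. HSPH1 stood farthest from its nearest gene, at a distance of 1.27, against 0.14 to 0.84 for the others. SFXN1, nearest to it, had 34 and 31 whole cell windows where HSPH1 had 16 and 52. The other 4 chaperone genes had windows in fewer than 4 lists.

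Because several of these genes stood higher together, their promoters were searched for heat shock element letters in the 250 bases upstream of each RefSeq start site (GRCh38.p14). The search took GAANNTTC or TTCNNGAA, which read the same on both strands, and as a longer form 3 alternating units, each of which holds the shorter match. Over all 35116 promoters given by RefSeq, 11.6% held the shorter form and 0.441% the longer one. Of 16 promoters of the 10 genes 7 held the shorter form, 1 each of 7 genes, and 4 the longer one, in HSPA8, HSP90AA1, HSP90AB1 and HSPD1. HSP90AA1, HSP90AB1, DNAJB1 and HSPD1 also had start sites without a match, and the HSP90AB1 match belonged to the most downstream of its start sites. The promoters of HSPA4, HSPH1 and HSPE1 held neither in this window. The HSPD1 match lay 227 bases before a start site, within chr2:197500060-197500090, on the side towards HSPE1. The stretch searched for HSPE1 began at chr2:197500129. The 250-base limit thus counted this match for HSPD1 and not for HSPE1. The matches of 6 genes are shown with the matched letters in capitals, to set beside the read ratios. They lie at chr6:31815429-31815452, chr6:31827625-31827648, chr11:123062171-123062199, chr14:102087112-102087140, chr6:44247823-44247851 and chr19:14518429-14518452, in the order printed, and HSPA8, HSP90AA1 and DNAJB1 are on the minus strand:
HSPA1A: aaaccctgGAATATTCccgacctg
HSPA1B: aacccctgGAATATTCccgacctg
HSPA8: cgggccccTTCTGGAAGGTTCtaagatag
HSP90AA1: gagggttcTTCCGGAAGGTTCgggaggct
HSP90AB1: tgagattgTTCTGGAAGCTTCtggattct
DNAJB1: gggctctgGAAGCTTCcgccggac

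A match describes letters only, and no promoter was measured in these libraries. DNAJB1, with the largest read ratio, held the shorter form 39 bases before a start site, HSPA8 the longer form 42 bases before, and HSP90AA1 the longer form 75 bases before. HSPH1, whose IP reads stood 4.47-fold higher, held no match, and HSPD1, at 1.59-fold, held the longer form.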

How the data were processed

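The 10 genes, the wider chaperone list and the tests were chosen with earlier results of these data known. Per the submitters' processing notes, the authors used fastp 0.11.5 and STAR 2.7.6 with hg38; no source used here names the window caller. The labels' treatment field names arsenic for all samples and the protocol names 1 antibody number for all 3 proteins; groups follow the characteristics and titles.

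The deposited read counts per window are sums over replicates, without library totals, so library depth is unknown here and intervals cover counting error only. Reads in listed windows ranged from 189220 to 8092831 IP and from 27994 to 1041894 input reads per list. The deposited log2 enrichment is given for the lowest and highest replicate, without replicate numbers. The deposited q-value was at most 0.2 in every listed window. Each window also has its GC fraction, as deposited. Feature types were read from the names of the authors' codes, and a window with several codes was counted by the first. The G3BP1 list held 2 sets of entries, 1254 over up to 2 replicates and 1988 over up to 3, both used; which libraries the third adds is not known here.

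A window was assigned to every gene it names. Shared windows have the same coordinates in both lists. Per gene, the shared window with the most IP reads was tested with limma 3.58.1 in R 4.3.3 (unpaired, Benjamini-Hochberg over all genes, adjusted p under 0.05), which was tested on simulated data. P-values measure the spread between these samples, which may be technical. Read ratios carry exact 95% intervals. All 10 genes are named. From the wider list, genes found in 1 condition only or at least 2-fold higher are named, the latter chosen after their values were seen, as were the genes beside DNAJB1 in rank. Alternatives were other q limits, count filters, variance priors, centring, list lengths, scales, and leaving out the lowest or highest replicate value of every window. The fold of 2 in window numbers, the alignment of HSPA1A and HSPA1B and the promoter search were added after seeing the data. Tables and figures were made with Python 3.11.15, pandas 2.3.3 and matplotlib 3.10.9.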

Additional observations from a re-analysis of the deposited data

How the results depend on the processing

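No paired analysis was possible because the lists give the lowest and highest replicate without replicate numbers. The number of chaperone genes at least 2-fold higher with arsenic in whole cell reads stayed within 1.5 times under each alternative run: 6, 6 and 4 of 8 in input and 5, 5 and 5 in IP (all windows, another scale, only the window with most IP reads). With that window alone, the log2 input ratio was 4.91 for DNAJB1 and 0.96 for HSPH1. With untreated and arsenic lists of equal length, 3 chaperone genes had at least 2 times as many windows with arsenic (DNAJB1, HSPH1 and HSPE1) beside 8.87% of genes. Other results depended on the setting, and the cause was not tested. The number of genes with a window moved to 3 (cytoplasm untreated) and 1 (cytoplasm with arsenic) at q under 0.05, to 4 for the cytoplasm with arsenic at equal list length, and to 2 for CAPRIN with at least 20 IP and 10 input reads.

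For the limma count over all genes, the cytoplasmic arsenic comparison moved from 0 to 30 with the mean over windows, 115 with a variance trend, 21 at q under 0.05 and 40 with the read minimum. No single library could be left out, since the lists do not say which replicate is the lowest. Leaving out the lowest or highest value of every window instead gave 0 to 403 there, 0 to 4 in whole cells and 0 to 121 between fractions with arsenic. That choice uses the outcome: dropping the lowest value of one condition raises every difference by construction, and the remaining single value is assumed to vary like the other condition. These counts therefore say nothing about dependence on a library. The read minimum gave 18 between fractions without arsenic, and it and q under 0.05 gave 1 and 1 with arsenic. Over these omissions the cytoplasmic difference ran from 0.36 to 3.67 for HSPA8 and from 1.08 to 4.24 for HSP90AB1, and that between fractions with arsenic from 1.79 to 4.96 for HSP90AB1.

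Whole cell differences changed sign with the mean over windows for HSPA4 (0.10), DNAJB1 (0.15) and HSPD1 (0.10), and at q under 0.05 for HSPH1 (-0.25), HSP90AB1 (-0.46) and DNAJB1 (0.061). For HSPE1 the difference was 1.01 and 0.37 in these settings. The same omissions gave 0.46 to 3.42 for HSPE1, -1.37 to 0.50 for HSPA4, -0.80 to 0.053 for DNAJB1, -0.69 to 0.62 for HSPD1 and -0.10 to 1.5 for HSPH1. With the median difference removed, cytoplasmic HSPA8 was -0.0077, HSPA4 -1.15 and HSP90AB1 0.64, and HSP90AA1 between fractions with arsenic was -0.29, with -0.34 to 2.38 over the omissions. Untreated DNAJB1 input rested on 23 reads, which limits its ratio.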
